A study of Mus musculus with 6 samples.

Results

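In tumour cells edited with a guide RNA to Jag2, a gene for a Notch ligand, 50 named genes stood at very low levels. All 50 were higher, mostly still at low levels, in tumour cells with a scrambled guide. They were chosen from 55334 genes by their CPM, a gene's count divided by the total count of its library and multiplied by 1000000. A gene was taken when its CPM lay under 1 in all 3 JAG2KO libraries and at or above 2 in all 3 Scramble libraries. Of 59 genes past both thresholds, 9 were left out by symbol: 7 were unnamed gene models and the others were Hoxa11 and Hoxb7. The same rule with the groups exchanged took 21 genes. The 50 are called switched-off genes below as a name for the rule only. In JAG2KO 20 of them had a mean of at least 0.5 CPM, and 0 had no counts in all 3 libraries. Because the JAG2KO and Scramble values chose these 50 genes, their levels and ratios are a description and carry no test.

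The libraries come from Lewis lung carcinoma, a mouse lung tumour line, marked with green fluorescent protein (GFP) and grown in the flanks of mice. The JAG2KO group carried a guide RNA to Jag2 and the Scramble group a scrambled guide, with 3 libraries each. In both groups 400000 cells that were positive for GFP, negative for the leukocyte marker CD45 and negative for the dead-cell dye DAPI were sorted, and polyA RNA was sequenced. The sources used here give neither the mouse strain and age nor the time in the mouse, and do not say whether the edited cells were 1 clone or a pool. Nothing in the labels ties a library to a mouse of its own, so the spread behind each p-value is that between libraries and may be technical. The JAG2KO libraries JagKO2, JagKO3 and JagKO4 held 37036772, 37751864 and 42914376 counts, and the Scramble libraries Scramble1, Scramble2 and Scramble3 held 43907690, 43923565 and 39448304. A gene with 3 counts therefore stood at 0.0699 to 0.081 CPM in JAG2KO and at 0.0683 to 0.076 CPM in Scramble, which limits the precision of every JAG2KO level below.

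Jagged2 is a membrane ligand that binds Notch receptors on neighbouring cells and leads to the release of the receptor's intracellular part, which acts with the DNA-binding protein RBPJ on target genes. Tumour cell lines often carry low levels of genes better known from neurons, germ cells or embryonic tissues, and such genes can be kept silent by methylation of CpG dinucleotides near their start or by Polycomb proteins. The 50 genes included the dendrite protein gene Map2, the neuronal surface protein gene Lingo3, the developmental signals Bmp4, Hhip and Frzb and the angiotensin receptor gene Agtr2.

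Jag2 itself had 0.513, 0.795 and 1.12 CPM in JagKO2, JagKO3 and JagKO4, and 1.53, 1.09 and 1.01 CPM in Scramble1, Scramble2 and Scramble3. The groups overlapped, and the log2 fold change was -0.58 (SE 0.39, edgeR quasi-likelihood test with Benjamini-Hochberg adjustment, adjusted p = 0.318). The level of this RNA is no check of the labels, since an edited gene can still be transcribed.

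The sorted cells were labelled as lung. The lung epithelial transcription factor gene Nkx2-1 and the surfactant gene Sftpb were at 0 in all 6 libraries. Of the 4 tested lung epithelium markers 1 was called lower, Krt8, a keratin of simple epithelia, which had 4.51, 3.15 and 4.75 CPM in JAG2KO and 128, 118 and 125 CPM in Scramble (log2 fold change -4.90, edgeR adjusted p = 1.72e-10). Its partner keratin Krt18 had 278 to 332 CPM in JAG2KO and 260 to 272 CPM in Scramble (log2 fold change 0.20, edgeR adjusted p = 0.0637). Ptprc, which encodes CD45, had 2.45 to 3.87 CPM in JAG2KO and 2.07 to 2.25 CPM in Scramble. Among markers of other cell types the sort could hold, 5 of 11 macrophage markers were called higher (3 without Scramble2 or without Scramble3), with sums of 87.2 to 105 CPM in JAG2KO and 46 to 56.8 CPM in Scramble. Of 11 endothelial markers 6 were called higher (sums of 48.1 to 64.7 CPM in JAG2KO, 31.1 to 35.3 CPM in Scramble). Pericyte markers were called higher for 5 of 6, with sums of 70.6 to 113 CPM in JAG2KO and 35.8 to 44.2 CPM in Scramble. Fibroblast markers had the largest sums, 926 to 1415 CPM in JAG2KO and 841 to 989 CPM in Scramble. Of these 7 markers 2 were higher (1 without JagKO2, Scramble1 or Scramble2) and 1 lower, Fap (log2 fold change -2.40, edgeR adjusted p = 5.13e-06). Skeletal muscle markers were uneven within groups, with 68.7, 9.09 and 114 CPM in JAG2KO and 39.4, 12.4 and 6.84 CPM in Scramble. Of 7 tested Schwann cell and neuron markers 2 were called lower, and the list summed to 56.3 to 64.7 CPM in JAG2KO and 62.6 to 69.7 CPM in Scramble. The neural adhesion gene Ncam1 fell by 1.92 and the neuronal tubulin gene Tubb3 by 0.62 (edgeR adjusted p = 1.03e-05 and 0.0122), the Tubb3 call being lost without Scramble2. The myelin protein gene Mbp made up 33.8 to 41.7 CPM of the sum in JAG2KO and 31.5 to 33.6 CPM in Scramble. These are bulk samples, so fewer cells with a gene on and less RNA of it per cell cannot be told apart.

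The summed level of the 50 genes was nearly the same in every library of a group. It was 21.8, 21.8 and 21.9 CPM in JagKO2, JagKO3 and JagKO4, and 246, 234 and 241 CPM in Scramble1, Scramble2 and Scramble3. Low levels in all 3 JAG2KO libraries were a condition of the choice, so the even sums are no separate result. JagKO2 was the lowest JAG2KO library for 17 genes, JagKO3 for 18 and JagKO4 for 15, with a tie given to the lower-numbered library. The mean level over a group's libraries had a median over the genes of 0.404 CPM in JAG2KO and 3.44 CPM in Scramble, where the median of all tested genes was 16.3 CPM. In Scramble 33 of the 50 had a mean of at least 3 CPM, 18 of at least 5 and 4 of at least 10.

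**Figure D1:**
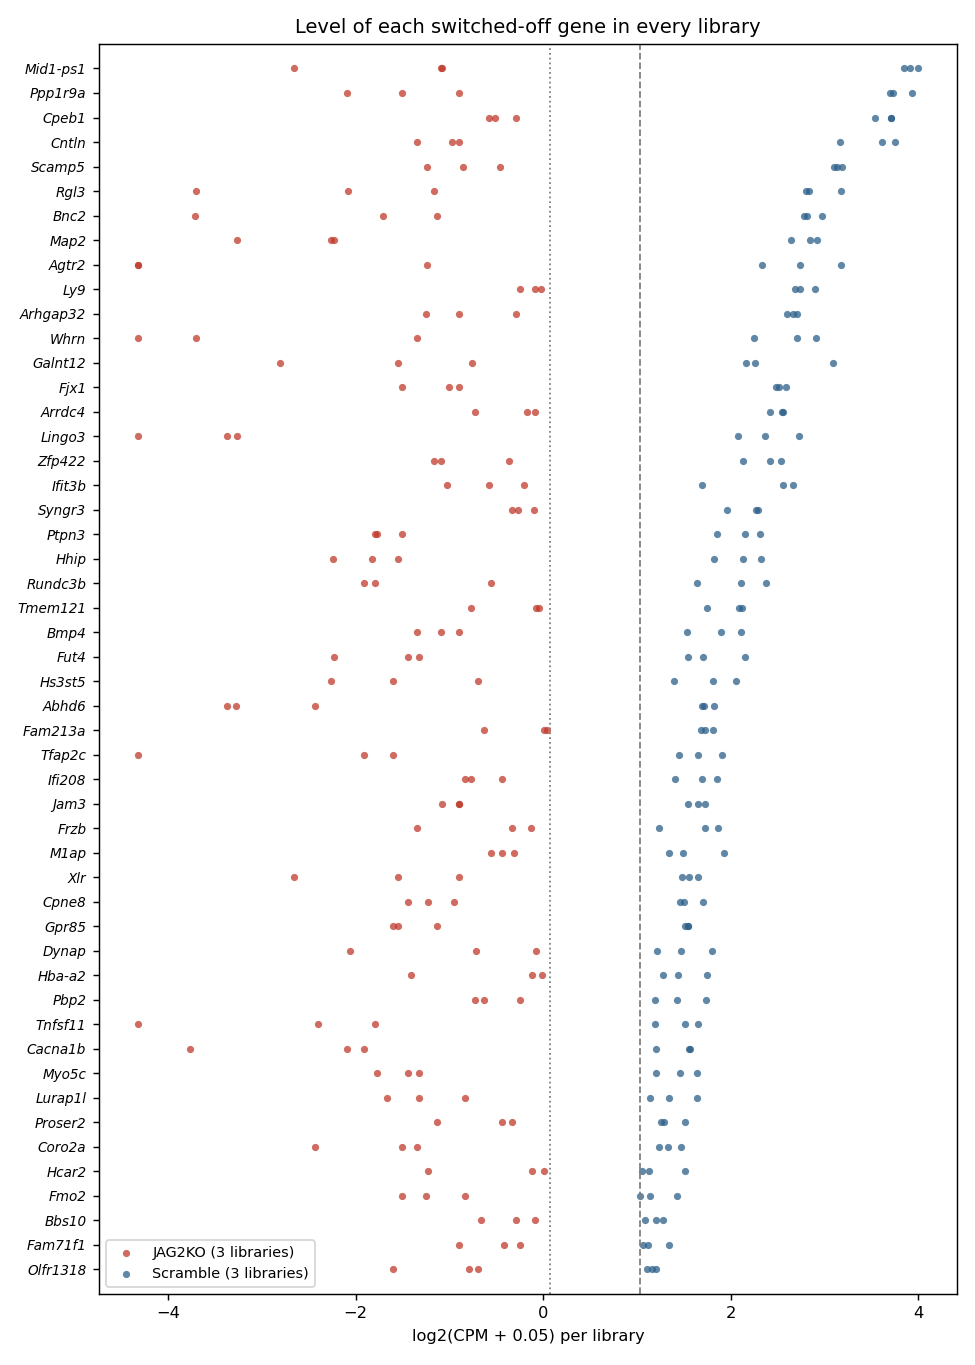
Each row is 1 of the 50 genes and each point 1 library (red, JAG2KO; blue, Scramble), on a log2 axis of CPM plus 0.05; the dotted and dashed lines mark the thresholds of 1 and 2 CPM that chose the genes. Points at the far left are libraries with 0 counts: Agtr2, Whrn, Lingo3, Tfap2c and Tnfsf11 have them, and no gene has 0 in all 3 JAG2KO libraries.

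The ratio of the mean Scramble CPM to the mean JAG2KO CPM ran between 2.99 for Bbs10 and 158 for Lingo3, with a median of 9.71. It was at least 5 for 40 genes, at least 10 for 23 and at least 30 for 9. The narrowest gap, between the highest JAG2KO and the lowest Scramble library, was 2.12-fold for Hcar2 and the widest 77.6-fold for Lingo3. The coefficient of variation had a median of 33.8% in JAG2KO and 14.4% in Scramble. All 50 genes passed the filter on low counts and all 50 were called lower by edgeR at an adjusted p under 0.05, as were 12.5% of the 16049 tested genes (24.3% were called in either direction). Groups lay wholly apart with JAG2KO below for 20.6% of tested genes and with JAG2KO above for 19.6%. Since the same contrast chose the 50, nothing is read from their count.

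The thresholds passed between close values. Just inside by its lowest Scramble library was Fmo2, with 0.513, 0.371 and 0.303 CPM in the JAG2KO libraries and 2.16, 2 and 2.64 CPM in Scramble. The nearest genes outside were Ggt7, Dock3 and Zscan18. Ggt7 had 0.486, 0.795 and 0.932 CPM in JAG2KO and 2.46, 3.05 and 1.88 CPM in Scramble. The ratios of the 3 were 3.34, 26.3 and 3.5. On the JAG2KO side, Fam213a lay just inside with 0.594, 0.954 and 0.979 CPM in JAG2KO and 3.17, 3.26 and 3.47 CPM in Scramble. The nearest genes outside were Syne4, Tnip3 and Tpbg, with highest JAG2KO levels of 1.03, 1.03 and 1.05 CPM and ratios of 2.86, 5.26 and 16.4. So both lines left out genes with ratios like those of genes taken.

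The stretch before the start of transcription is printed for 4 of the genes. Lingo3 is shown because it had the lowest JAG2KO level of the 50, Agtr2 because it was at 0 in JagKO2 and JagKO3 and has few CpG dinucleotides where Lingo3 has many, and Ifit3b and Ifi208 because they are the interferon-inducible genes of the set. Each run is the 250 bases before the RefSeq start in GRCm38.p6, 5' to 3' on the gene's strand. Capitals mark CpG dinucleotides in Lingo3 (chr10:80844040-80844289, minus strand) and Agtr2 (chrX:21484374-21484623, plus strand). In Ifit3b (chr19:34607707-34607956, plus strand) and Ifi208 (chr1:173673415-173673664, plus strand) capitals mark matches to GAAA-NN-GAAA (N is any base, no gap), a pattern like the interferon-stimulated response element, on either strand.
Lingo3: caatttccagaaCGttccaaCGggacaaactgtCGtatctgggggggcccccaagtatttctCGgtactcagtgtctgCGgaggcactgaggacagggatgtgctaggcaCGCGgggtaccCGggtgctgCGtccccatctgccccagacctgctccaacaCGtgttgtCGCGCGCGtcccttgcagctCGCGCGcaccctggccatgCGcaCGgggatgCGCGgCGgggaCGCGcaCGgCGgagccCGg
Agtr2: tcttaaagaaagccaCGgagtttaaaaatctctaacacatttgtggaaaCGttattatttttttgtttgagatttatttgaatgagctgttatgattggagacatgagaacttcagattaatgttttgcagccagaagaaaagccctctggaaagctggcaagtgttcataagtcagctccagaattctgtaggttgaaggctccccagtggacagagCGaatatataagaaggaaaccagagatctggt
Ifit3b: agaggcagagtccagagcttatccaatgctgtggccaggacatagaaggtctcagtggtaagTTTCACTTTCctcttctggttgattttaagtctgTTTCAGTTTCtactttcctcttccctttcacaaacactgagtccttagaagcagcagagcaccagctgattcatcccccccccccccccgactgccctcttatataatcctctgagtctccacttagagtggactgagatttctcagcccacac
Ifi208: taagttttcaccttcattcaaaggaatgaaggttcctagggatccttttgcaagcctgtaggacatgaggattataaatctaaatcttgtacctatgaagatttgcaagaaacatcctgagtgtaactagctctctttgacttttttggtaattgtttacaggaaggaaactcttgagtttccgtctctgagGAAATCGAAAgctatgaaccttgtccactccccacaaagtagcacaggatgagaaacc

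Of the 250 bases shown, the Lingo3 run holds 27 CpG dinucleotides and the Agtr2 run 3. Ifit3b has 2 separate matches to the interferon-type pattern on the minus strand, and Ifi208 has 1 on the plus strand. The stretch of Ifit3b also holds 1 CpG and that of Ifi208 2. A match is a stretch of letters and says nothing here about a bound factor.

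Over 300 bases (250 before and 50 after the start), 40 of the 50 genes had a RefSeq promoter. The 10 others were Ly9, Fam213a, Syngr3, Dynap, Fjx1, Tfap2c, Galnt12, Hcar2, Jam3 and Mid1-ps1. The ratio of observed to expected CpG had a median of 0.586 in the 40 promoters (quartiles 0.325 and 0.834), against 0.754 (0.537 and 0.907) over 10772 promoters of tested genes and 0.389 over all 27025 mouse promoters in the table. A ratio of at least 0.6 was held by 20 of the 40 (50%), by 70.1% of tested genes' promoters and by 36.5% of all. The 40 promoters therefore lay between the tested genes and all genes in CpG content, with both CpG-rich members such as Lingo3 (0.973) and Map2 (0.827) and CpG-poor ones such as Ppp1r9a (0.331), Ifi208 (0.149) and Ifit3b (0.0582). The promoters compared were not matched for expression level. In Scramble the 50 genes had a median of 3.44 CPM and tested genes 16.3 CPM. The part of this lower level in the CpG shares was not tested.

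**Figure D2:**
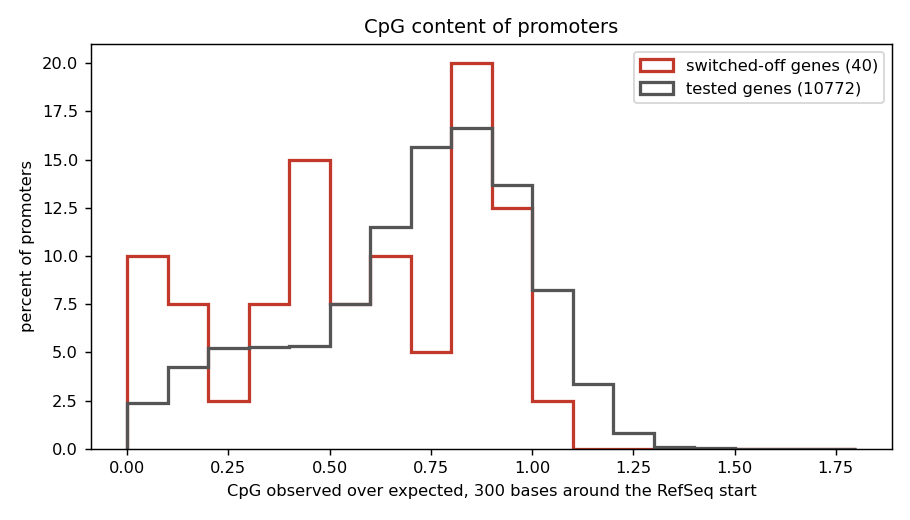
Distribution of the observed-to-expected CpG ratio over 300 bases around the RefSeq start (x axis) as a percent of promoters (y axis), for the 40 switched-off genes with a promoter (red) and 10772 tested genes (grey). The medians are 0.586 and 0.754.

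Short sequence patterns were counted on both strands in the same 300 bases. TATAAA, the TATA box, was present in 7 of the 40 promoters (17.5%), in 7.45% of tested genes' promoters and in 14.2% of all promoters. GGGCGG, the GC box, was present in 52.5% of the 40, 63% of tested and 35.9% of all. TGGGAA, the core bound by RBPJ, was present in 25% of the 40, in 23.2% of tested and in 25.5% of all promoters. The shares were 40%, 38.9% and 38% for CCAAT, 10%, 9.96% and 7.24% for the E-box CACGTG, and 2.5%, 3.77% and 5.17% for the AP-1 site TGACTCA, in the same order of the 40, tested and all promoters. The GAAA-NN-GAAA pattern was present in 3 of the 40, Lurap1l besides Ifit3b and Ifi208 (7.5%), in 3.07% of tested and in 3.49% of all promoters. These shares were not tested, and 1 promoter of the 40 is worth 2.5%.

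Among the secreted signals and their antagonists there were 5 genes. Bmp4, a bone morphogenetic protein that patterns embryonic tissues including lung, had 0.486, 0.344 and 0.419 CPM in JagKO2, JagKO3 and JagKO4 and 3.67, 4.28 and 2.84 CPM in Scramble1, Scramble2 and Scramble3. Hhip, which binds Hedgehog ligands and limits their signal, had 0.162, 0.291 and 0.233 CPM in JAG2KO and 4.96, 4.33 and 3.5 CPM in Scramble. Frzb, a secreted protein that binds Wnt ligands, had 0.864, 0.344 and 0.746 CPM in JAG2KO and 3.6, 3.26 and 2.31 CPM in Scramble. The libraries of Frzb were the most uneven of these 3 in both groups. Tnfsf11, the cytokine RANKL that drives osteoclast formation, had 0, 0.238 and 0.14 CPM in JAG2KO and 3.1, 2.8 and 2.23 CPM in Scramble. Its log2 ratio was -4.43 over all libraries, -3.84 without JagKO2 and -5.28 without JagKO3. Fjx1, a Golgi and secreted protein related to four-jointed of the fly, had 0.486, 0.45 and 0.303 CPM in JAG2KO and 5.67, 5.56 and 5.96 CPM in Scramble.

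Relatives of Bmp4 moved in both directions. Bmp6 rose with a log2 fold change of 2.75 and Bmp7 with 3.0 (edgeR adjusted p = 0.000576 and 0.000768), both at low levels. Without Scramble1 the value for Bmp7 was 3.61. Bmp2 had a log2 fold change of -1.0 (edgeR adjusted p = 0.016), a call lost without JagKO4 or without Scramble3. Tnfsf9, another ligand of the tumour necrosis factor family, fell by 0.81 (edgeR adjusted p = 0.00493), and it was the 1 gene called of 6 tested relatives of Tnfsf11.

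The 8 receptors, adhesion proteins and channels summed to 3, 3.1 and 3.38 CPM in the JAG2KO libraries and to 33.2, 30.2 and 32.8 CPM in Scramble. Lingo3, a leucine-rich repeat surface protein of a family known from neurons, had 0.054, 0 and 0.0466 CPM in JAG2KO, which is 4 counts in all, and 4.19, 5.1 and 6.59 CPM in Scramble, 668 counts. Its ratio of 158 was the highest of the 50. Without JagKO2 it was 212-fold (95% counting interval 58.4 to 1752), without JagKO3 105-fold (40.8 to 386) and without JagKO4 196-fold (54.1 to 1624), intervals that cover counting error only. Agtr2, the type 2 receptor for angiotensin, had 0, 0 and 0.373 CPM in JAG2KO and 9, 5.01 and 6.64 CPM in Scramble. Its JAG2KO counts were all in JagKO4, and the ratio over all libraries was 55.4. With JagKO4 left out, Agtr2 was at least 172-fold lower in JAG2KO (3 counts over the JAG2KO libraries taken as the floor). Lingo3 was near 0 in every JAG2KO library, whereas Agtr2 was detected in 1 of 3.

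Cacna1b, the pore subunit of the N-type calcium channel of nerve terminals, had 0.216, 0.185 and 0.0233 CPM in JAG2KO and 2.25, 2.91 and 2.89 CPM in Scramble. Ly9, a SLAM-family receptor of lymphocytes, had 0.891, 0.795 and 0.932 CPM in JAG2KO and 7.4, 6.37 and 6.62 CPM in Scramble, with little spread in either group. Other leukocyte receptor genes beside it on chromosome 1 were well below it in Scramble: Cd48 averaged 0.32 ± 0.0455 CPM in JAG2KO and 0.309 ± 0.11 CPM in Scramble, and Cd84 0.744 ± 0.281 CPM in JAG2KO, near the level of Ly9 there, and 0.658 ± 0.316 CPM in Scramble (SD, n = 3 each). Slamf8, of the same family, averaged 2.54 ± 1.67 CPM in JAG2KO and 0.629 ± 0.202 CPM in Scramble and rose by 2.01, and by 1.34 without JagKO2 (edgeR adjusted p = 0.00873 with all libraries). Markers of T and NK cells summed to 0.839 to 2.97 CPM in JAG2KO and 1.27 to 1.75 CPM in Scramble. Jam3, a junctional adhesion molecule, had 0.486, 0.424 and 0.489 CPM in JAG2KO and 3.26, 2.87 and 3.09 CPM in Scramble. The antisense gene model Gm48796 overlaps 36.2% of its exon bases. No source names a strand setting, so the level of Jam3 is uncertain. The orphan receptor gene Gpr85, the nicotinic acid receptor gene Hcar2 and the olfactory receptor gene Olfr1318 had ratios of 8.74, 3.16 and 4.75. Olfactory receptor genes have close copies, and reads may have been shared between them.

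The renin-angiotensin list, of which Agtr2 is a member, held 10 tested genes, with 1 called lower (Agtr2) and 2 higher, a median log2 fold change of -0.04 and 7 not called. Without JagKO2 2 were lower. With Agtr2 set aside, 0 of 9 were lower by edgeR with all libraries, and the median was 0.00. Agtrap, which binds the type 1 receptor, rose by 0.71, and Lnpep, an aminopeptidase that binds angiotensin IV, by 0.43 (edgeR adjusted p = 0.000537 and 0.000269). Lingo1, the 1 tested relative of Lingo3, averaged 0.045 ± 0.0779 CPM in JAG2KO and 0.587 ± 0.261 CPM in Scramble, with a log2 fold change of -3.68 (edgeR adjusted p = 0.016). That call was lost without JagKO3, JagKO4, Scramble1 or Scramble2. All 5 of its JAG2KO counts were in JagKO2, and with JagKO2 left out Lingo1 was at least 16.1-fold lower in JAG2KO, against the floor of 3 counts over the group. With JagKO4 left out the log2 fold change was -3.08. Of 6 tested genes of the Nogo receptor and LINGO list 2 were lower, Lingo1 and Lingo3, and 1 was higher, the kinase gene Wnk1 (log2 fold change 0.33, edgeR adjusted p = 0.00172). Without Scramble3 2 of that list were higher. With Lingo3 set aside, 1 of 5 was lower with all libraries.

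Among calcium channel genes 4 of 10 tested genes were lower, Cacna1b included, and 2 higher, with a median log2 fold change of -0.33. With Cacna1b set aside, 3 of 9 were lower and the median was -0.25. The auxiliary subunit gene Cacna2d1 rose by 1.32, and the beta subunit genes Cacnb3 and Cacnb2 fell by 0.74 and 0.62 (edgeR adjusted p = 2.26e-06, 0.000308 and 0.00466). Potassium channel genes gave 6 lower and 4 higher of 28 tested, with a median of 0.14. Kcnh1, a voltage-gated channel, fell by 1.58 (edgeR adjusted p = 4.98e-06). Of 46 orphan and adhesion receptor genes tested, 8 were lower, Gpr85 included, and 10 higher (6 without Scramble2), with a median of 0.15. With Gpr85 set aside, 7 of 45 were lower and the median was 0.19. The adhesion receptor gene Adgrl3, a latrophilin, averaged 0.051 ± 0.0265 CPM in JAG2KO and 1.14 ± 0.196 CPM in Scramble (SD, n = 3 each), a log2 fold change of -4.40 (edgeR adjusted p = 0.000202). Over all tested genes 12.5% were lower, 11.8% higher, and the median was 0.00.

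The 8 genes of the cytoskeleton, cilia and centrioles summed to 2.81, 2.73 and 2.54 CPM in the JAG2KO libraries and to 49.1, 45.1 and 51.1 CPM in Scramble, where this class had the highest sum. Ppp1r9a, which encodes neurabin, an actin-binding scaffold for protein phosphatase 1 in dendritic spines, had 0.486, 0.185 and 0.303 CPM in JAG2KO and 15.2, 13 and 13.2 CPM in Scramble. Cntln, which encodes the centriole linker protein centlein, had 0.459, 0.344 and 0.489 CPM in JAG2KO and 12.2, 8.97 and 13.4 CPM in Scramble. Both were low in every JAG2KO library, and Cntln varied more among the Scramble libraries. Map2, a microtubule-associated protein of dendrites, had 0.054, 0.159 and 0.163 CPM in JAG2KO and 7.52, 6.19 and 7.15 CPM in Scramble, a ratio of 55.5. Whrn, which encodes the scaffold whirlin of hair-cell stereocilia, had 0.027, 0.344 and 0 CPM in JAG2KO and 4.71, 6.47 and 7.5 CPM in Scramble. Its JAG2KO counts lay almost wholly in JagKO3: the ratio was 50.3 with that library and 494-fold without it, from 1 count (95% counting interval 88.5 to 19551).

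The others of this class had lower Scramble levels. The actin-binding coronin gene Coro2a had a ratio of 9.58, the unconventional myosin gene Myo5c 8.82, Lurap1l 6.84, and the ciliary chaperonin-like gene Bbs10 2.99, the lowest of the 50. Of 17 tested myosin relatives of Myo5c, 8 were called higher and 1 lower, Myo1c. With 1 library left out, 5 were higher without JagKO2, Scramble1 or Scramble3, and the call of Myo1c was lost without any library but JagKO2. Myo18a rose by 0.90 and Myo10, a motor of filopodia, by 0.64 (edgeR adjusted p = 1.02e-05 and 2.91e-05). Of the 7 tested relatives of Bbs10, 0 were called by edgeR, DESeq2 or limma-voom and 1 had an unadjusted edgeR p under 0.05, and Bbs1 had a log2 fold change of 0.00 (edgeR adjusted p = 0.989).

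Partners of these genes moved in both directions. In the neuronal cytoskeleton list 2 of 17 tested genes were lower, Map2 included, and 5 higher, with a median log2 fold change of 0.10. The lower calls numbered 4 without JagKO2 and 1 without Scramble2. With Map2 set aside, 1 of 16 was lower with all libraries, and the median was 0.14. Map1a, like Map2 a microtubule-associated protein of neurons, rose by 1.46, and the doublecortin-like kinase gene Dclk1 by 1.41 (edgeR adjusted p = 1.49e-05 and 7.08e-05). Among spinophilin and protein phosphatase 1 partners 2 of 12 were lower, Ppp1r9a included, and 4 higher, with a median of 0.05. Without JagKO4, Scramble1 or Scramble2 1 was lower and 2 were higher, and without Scramble3 2 were higher. With Ppp1r9a set aside, 1 of 11 was lower with all libraries, and the median was 0.10. Ppp1r9b, which encodes spinophilin, the close relative of neurabin, averaged 90.2 ± 6.96 CPM in JAG2KO and 111 ± 8.31 CPM in Scramble (SD, n = 3 each) and fell by 0.30 (edgeR adjusted p = 0.0155), a call lost without JagKO4, Scramble1 or Scramble2. Shank3, a scaffold of excitatory synapses, rose by 0.81 (edgeR adjusted p = 1.28e-05). In the Usher and whirlin list 3 of 7 were lower, Whrn included, and 1 higher, a call lost without any 1 library, with a median of 0.09. With Whrn set aside, 2 of 6 were lower and the median was 0.26. Cask and Mpp1, scaffolds of the membrane-associated guanylate kinase family, fell by 0.58 and 0.37 (edgeR adjusted p = 0.00134 and 0.00283).

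**Figure D3:**
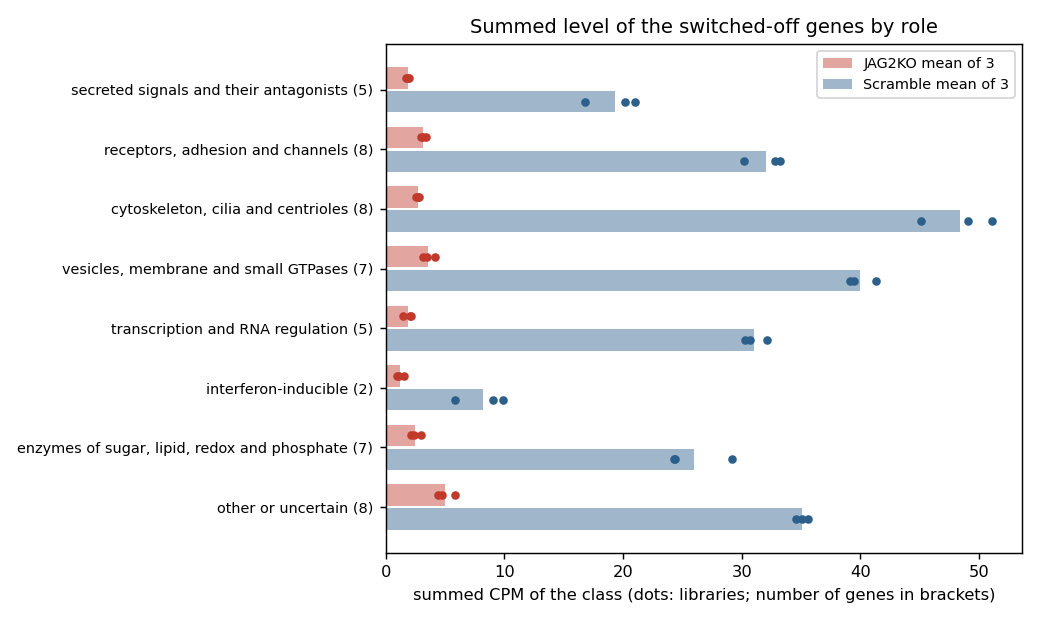
Summed CPM of the 50 genes in 8 classes of known role (bars, mean of 3 libraries; points, libraries; red, JAG2KO; blue, Scramble; number of genes in brackets). The classes were set by hand after the genes were known, and in each of them every JAG2KO library lies below every Scramble library, as the choice of genes fixes.

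Of the 7 genes of vesicles, membranes and small GTPases, Scamp5 and Syngr3 belong to synaptic and secretory vesicles. Scamp5, a secretory carrier membrane protein, had 0.675, 0.503 and 0.373 CPM in JAG2KO and 9.09, 8.74 and 8.57 CPM in Scramble. Syngr3, a synaptogyrin, had 0.783, 0.742 and 0.885 CPM in JAG2KO and 4.85, 3.85 and 4.77 CPM in Scramble. Scamp5 had little spread in Scramble and more in JAG2KO, whereas Syngr3 varied little in JAG2KO. Their relatives went the other way or did not pass the threshold: Syngr1 rose by 1.42 and Scamp1 by 0.46 (edgeR adjusted p = 0.000264 and 0.00558), and Scamp2 had a log2 fold change of 0.01 (edgeR adjusted p = 0.963).

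Rgl3, a guanine nucleotide exchange factor of the Ral GTPases, had 0.027, 0.397 and 0.186 CPM in JAG2KO and 7.11, 8.99 and 6.92 CPM in Scramble. Its log2 ratio was -5.24 over all libraries and -6.17 without JagKO3. Its relative Rgl1 averaged 111 ± 7.82 CPM in JAG2KO and 150 ± 8.92 CPM in Scramble (SD, n = 3 each) and fell by 0.43 (edgeR adjusted p = 0.00118). Among Ral exchange factors and their partners 4 of 14 tested genes were lower, Rgl3 included, and 2 higher, with a median of -0.02. The lower calls numbered 2 without JagKO3, Scramble1 or Scramble2, and 1 gene was higher without JagKO2, JagKO4, Scramble2 or Scramble3. With Rgl3 set aside, 3 of 13 were lower with all libraries, and the median was 0.05. Exoc2, an exocyst subunit bound by Ral, rose by 0.53 (edgeR adjusted p = 0.000548). The GTPase-activating protein gene Arhgap32 had 0.486, 0.371 and 0.769 CPM in JAG2KO and 6.51, 6.28 and 6.01 CPM in Scramble. Rundc3b, a RUN-domain protein gene, had a log2 ratio of -3.53, and -4.20 without JagKO4. The arrestin-domain gene Arrdc4 and the copine gene Cpne8 had ratios of 7.43 and 7.49, and Cpne3, a relative of Cpne8, rose by 0.65 (edgeR adjusted p = 0.000109).

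Among genes of transcription and RNA regulation, Cpeb1, which binds cytoplasmic polyadenylation elements and controls translation in oocytes and neurons, had 0.621, 0.768 and 0.652 CPM in JAG2KO and 13.1, 13.1 and 11.6 CPM in Scramble. It was the most even gene of this class in JAG2KO. Cpeb4, its relative, rose by 0.58 (edgeR adjusted p = 0.0075). Bnc2, the zinc finger protein basonuclin 2, had 0.405, 0.0265 and 0.256 CPM in JAG2KO and 6.83, 7.01 and 7.83 CPM in Scramble. Its log2 ratio was -4.98, and -5.68 without JagKO2. Its relative Bnc1 had a log2 fold change of -0.14 (edgeR adjusted p = 0.281).

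Tfap2c, a transcription factor of trophectoderm and germ cells, had 0.216, 0 and 0.28 CPM in JAG2KO and 3.71, 3.1 and 2.69 CPM in Scramble, with a log2 ratio of -4.26, and -4.87 without JagKO4. Tfap2a, a close relative, had a log2 fold change of -0.23 (edgeR adjusted p = 0.142). The zinc finger gene Zfp422 had a ratio of 9.95. Xlr, an X-linked lymphocyte-regulated gene with close copies that may share reads, had a ratio of 9.84. Homeobox genes outside the Hox clusters, which can be read beside the 2 Hox genes that were left out by symbol, gave 1 lower and 4 higher of 11 tested, with a median of 0.20. Without JagKO2, JagKO3, Scramble1 or Scramble3 2 were higher, and the lower call was lost without Scramble1 or Scramble2. Dlx3, a homeobox gene of skin and placenta, rose by 4.90 (edgeR adjusted p = 0.000151), and by 4.06 without JagKO4. Skin markers summed to 8.4 to 22.3 CPM in JAG2KO and 1.85 to 2.53 CPM in Scramble. The part of skin cells in that rise was not tested.

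The interferon-inducible genes of the set were Ifit3b and Ifi208. Ifit3b, an interferon-induced protein with tetratricopeptide repeats, had 0.621, 0.821 and 0.443 CPM in JAG2KO and 5.85, 6.28 and 3.19 CPM in Scramble. Ifi208, of the pyrin and HIN domain family, had 0.513, 0.689 and 0.536 CPM in JAG2KO and 3.19, 3.57 and 2.61 CPM in Scramble. In both genes Scramble3 was the lowest Scramble library and still above every JAG2KO library. Among their relatives 3 of 3 tested Ifit genes were lower, also with any 1 library left out. Of 15 tested genes with the symbol stem Ifi 7 were lower and 8 were not called, and 4 were lower without JagKO4 or without Scramble1. The stem also takes Ifi27, Ifi27l2a, Ifi30, Ifi35 and Ifi44, which are not of the pyrin and HIN domain family. Of these, Ifi27, Ifi27l2a and Ifi44 were among the lower genes. Higher calls numbered 0 among the Ifit and the Ifi genes by edgeR, DESeq2 and limma-voom, as did higher genes at an unadjusted edgeR p under 0.05. Ifit3 fell by 2.18, Ifit1 by 2.09 and Ifit2 by 0.65 (edgeR adjusted p = 0.000232, 2.3e-05 and 0.000105). Next to Ifi208, Ifi206 fell by 2.67 and Ifi207 by 0.96 (edgeR adjusted p = 0.00167 and 0.00279), whereas Ifi203, Mndal and Aim2 had -0.16, -0.01 and 0.10 (edgeR adjusted p = 0.344, 0.986 and 0.582). Ifit3b and Ifit3, and the Ifi genes of the pyrin and HIN domain family among themselves, are near-identical in part, so reads may have been shared between them.

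Of 7 enzyme genes, Galnt12, Fut4 and Hs3st5 act on sugar chains. Galnt12, which starts mucin-type O-glycans, had 0.54, 0.291 and 0.0932 CPM in JAG2KO and 4.44, 4.76 and 8.49 CPM in Scramble, uneven in both groups. Its log2 ratio was -4.26, and -4.94 without JagKO2. Fut4, a fucosyltransferase that makes the Lewis x structure, had 0.351, 0.318 and 0.163 CPM in JAG2KO and 2.87, 3.21 and 4.41 CPM in Scramble. The heparan sulfate sulfotransferase gene Hs3st5 had a log2 ratio of -3.33, and -3.95 without JagKO2. Of 13 tested Galnt relatives 3 were lower and 3 higher. Without Scramble1 1 was lower, and without JagKO3, Scramble1, Scramble2 or Scramble3 1 was higher. Galnt3 fell by 1.39 (edgeR adjusted p = 0.00466) and Galnt7 rose by 0.38 (edgeR adjusted p = 0.00709), both calls held with any 1 library left out.

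Abhd6, a lipase that breaks down the endocannabinoid 2-arachidonoylglycerol, had 0.135, 0.053 and 0.0466 CPM in JAG2KO, 9 counts in all, and 3.23, 3.48 and 3.19 CPM in Scramble. Its log2 ratio was -5.40, and -6.05 without JagKO2. The tyrosine phosphatase gene Ptpn3 had a ratio of 16.5, the flavin monooxygenase gene Fmo2 5.73 and the redox gene Fam213a 3.92. Fmo6, a neighbour and relative of Fmo2, fell by 2.41 (edgeR adjusted p = 0.00292), and by 3.0 without JagKO2.

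The last 8 genes are uncertain in level or role. Mid1-ps1, annotated as a pseudogene on chromosome Y, had 0.108, 0.424 and 0.419 CPM in JAG2KO and 16, 14.4 and 15 CPM in Scramble, the highest Scramble level of the 50. Reads of Mid1, a ubiquitin ligase gene on chromosome X, may have been counted for it. Mid1 itself had a log2 fold change of -1.83 (edgeR adjusted p = 3.69e-06). Hba-a2, an alpha-globin gene, had 0.945, 0.874 and 0.326 CPM in JAG2KO and 2.37, 2.66 and 3.3 CPM in Scramble. Its near-identical copy Hba-a1 had 6.91, 12.8 and 5.66 CPM in JAG2KO and 19.6, 20.4 and 21 CPM in Scramble. The 4 other red cell markers summed to 16.1, 30.3 and 12 CPM in JAG2KO and 48.3, 54.9 and 56.6 CPM in Scramble, with 3 of 4 called lower. In counts Hba-a2 had 35, 33 and 14 in JagKO2, JagKO3 and JagKO4, so JagKO2 and JagKO3 were hardly apart. The part of red cells in the level of Hba-a2 was not tested. Tmem121, M1ap, Dynap, Pbp2, Proser2 and Fam71f1 had ratios of 5.02, 4.34, 5.13, 4.19, 4.10 and 3.36. M1ap is known from meiosis of male germ cells, and Pbp2 has a close copy that may share reads.

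Positions were compared with GENCODE M21 on GRCm38, which may differ from the annotation behind the counts. Of the 50 genes, 49 were protein coding and 1 was a pseudogene. Their gene spans had a median of 24565 bases, against 17665 for tested genes, and exon lengths had a median of 3652 bases against 3799. As CPM per kilobase of exon (RPKM), their level ran between 0.00762 and 1.07 in JAG2KO (median 0.106) and between 0.263 and 12.1 in Scramble (median 1.16). Chromosome 4 held 7 of them, chromosomes 2, 6 and 9 held 6 each, and chromosomes 3, 13 and 16 none.

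The genes beside the 50 differed by place. Among the 5 annotated genes on each side, 180 other genes were tested, of which 51 (28.3%) were called lower and 18 (10%) higher, with a median log2 fold change of -0.13, against 12.5% and 11.8% of all tested genes. The difference between these shares was not tested. On chromosomes 4 and 6 the lower share was 9 of 15 (60%) and 14 of 23 (60.9%), where all tested genes of the chromosome gave 14.5% and 23.1%. Outside both chromosomes it was 28 of 142 (19.7%). Over the 5 nearest tested genes on each side, 10 of the 50 had no neighbour called lower and 11 had at least 5. The fitted log2 fold change of the gene itself lay below that of all its tested neighbours for 42 of the 50, which the choice of low genes favours.

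**Figure D4:**
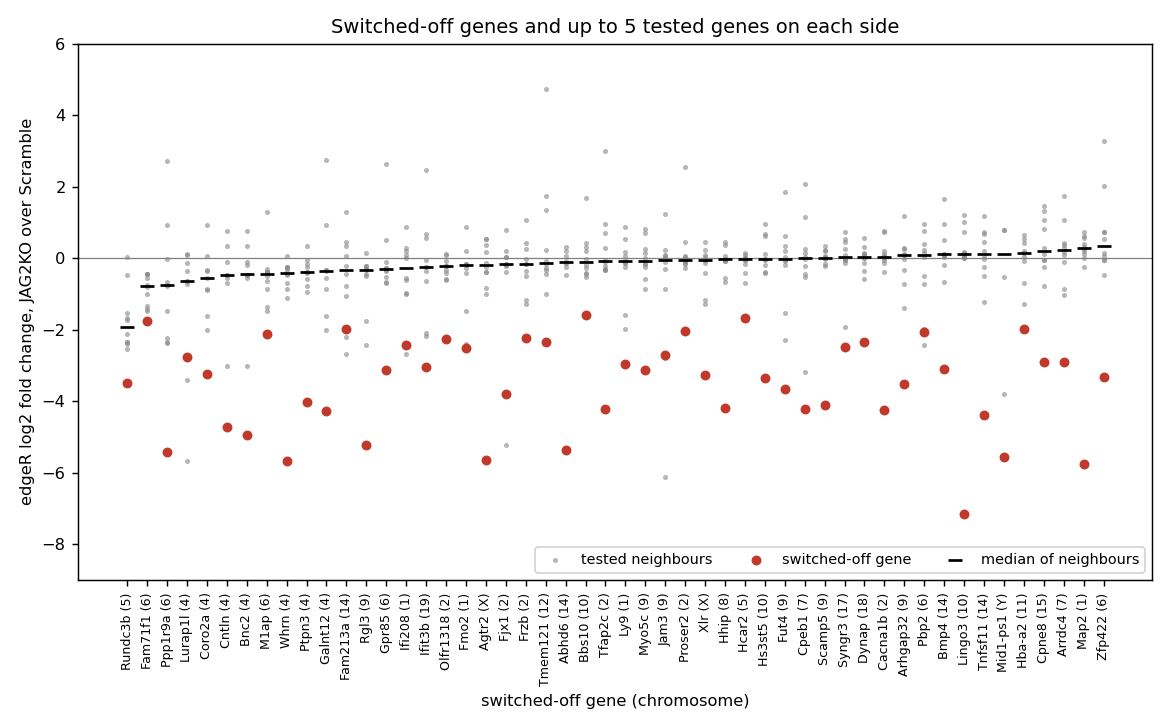
Fitted log2 fold change (JAG2KO over Scramble) of each switched-off gene (red) and of up to 5 tested genes on each side (grey points; black bar, their median), ordered by that median, with the chromosome in brackets. Rundc3b sits among neighbours that are mostly lower (median -1.91), whereas Lingo3 at -7.17 sits among neighbours near 0 (median 0.12).

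On chromosome 4, Lurap1l, Bnc2 and Cntln lie within a run of lower genes broken by others that did not change. Bnc2 (chr4:84275095-84675275, minus strand) and Cntln (chr4:84884309-85131921, plus strand) are 0.209 Mb apart, and Lurap1l lies 3.32 Mb before Bnc2. Between Lurap1l and Bnc2, Mpdz, a scaffold of tight junctions, averaged 5.43 ± 1.69 CPM in JAG2KO and 38.4 ± 0.971 CPM in Scramble (SD, n = 3 each; log2 fold change -2.83, edgeR adjusted p = 4.17e-07). Nfib, a transcription factor of lung and brain development, averaged 2.29 ± 0.165 CPM in JAG2KO and 24.1 ± 1.63 CPM in Scramble (log2 fold change -3.41, edgeR adjusted p = 9.32e-09). Cer1, an antagonist of Nodal and BMP ligands, had 1 count in JAG2KO, in JagKO3, and 74 counts in Scramble, so the Scramble level was 68.4 times that of JAG2KO (95% interval from counting 11.9 to 2739, edgeR adjusted p = 0.00154). With JagKO3 left out it was at least 15.5-fold lower in JAG2KO, on the same floor. In the same stretch Zdhhc21, Psip1 and Ccdc171 did not pass the threshold, at -0.15, -0.19 and -0.10 on the log2 scale (adjusted p = 0.238, 0.203 and 0.74). Lower genes and genes near 0 thus alternated along the segment.

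Rundc3b on chromosome 5 (chr5:8490334-8622952, minus strand) lies among genes that were lower nearly throughout. Dbf4, which activates a kinase of DNA replication, fell by 2.33, the mitochondrial carrier gene Slc25a40 by 2.40, the drug efflux pump gene Abcb1b by 2.33 and the calcium-binding protein gene Sri by 1.72 (edgeR adjusted p = 1.71e-09, 1.97e-08, 7.48e-10 and 1.33e-08). Adam22 had a log2 fold change of -0.46 (edgeR adjusted p = 0.375). Around Ppp1r9a on chromosome 6 (chr6:4902917-5165661, plus strand), Casd1 fell by 2.33, the imprinted gene Peg10 by 1.47 and Pon2 by 0.76 (edgeR adjusted p = 1.43e-08, 5.16e-07 and 4.14e-05). Sgce, between Casd1 and Peg10, had -0.03 (edgeR adjusted p = 0.859), and Pdk4 rose by 2.71 (edgeR adjusted p = 0.000669). Coro2a and Galnt12, 0.49 Mb apart on chromosome 4, enclose Tbc1d2 and Anks6, whose fitted log2 changes were -0.85 and -2.0 (edgeR adjusted p = 0.000876 and 0.00349).

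The surroundings of Abhd6, Lingo3 and Fjx1 differed from each other. The neighbours of Abhd6 on chromosome 14 (chr14:8002902-8056763, plus strand) included Rpp14, with a log2 fold change of -0.23, and Pxk, with 0.06 (edgeR adjusted p = 0.0933 and 0.653). The 10 tested neighbours of Lingo3 (chr10:80832801-80844039, minus strand) had a median of 0.12, and 0 of them were called by edgeR, DESeq2 or limma-voom, with 1 at an unadjusted edgeR p under 0.05. Next to Fjx1 on chromosome 2 (chr2:102449366-102452499, minus strand), Trim44 fell by 5.23 (edgeR adjusted p = 4.16e-10), with 2.36 ± 0.612 CPM in JAG2KO and 87.9 ± 2.61 CPM in Scramble (SD, n = 3 each). Pamr1 on the other side had 0.03 (edgeR adjusted p = 0.979), and Cd44, a hyaluronan receptor gene beyond it, fell by 0.38 (edgeR adjusted p = 0.00854).

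Tmem121 (chr12:113185930-113189523, plus strand) lies 256 kb from Jag2 (chr12:112907819-112929776, minus strand), the gene to which the guide was made. It had 0.918, 0.901 and 0.536 CPM in JAG2KO and 4.21, 3.3 and 4.31 CPM in Scramble. Between them, the named genes that were called were all lower, and those not called lay on both sides of 0. Crip2 had a log2 fold change of -1.0 (edgeR adjusted p = 0.00858), Nudt14 0.45, Brf1 0.20 and Mta1 -0.17 (edgeR adjusted p = 0.237, 0.105 and 0.0662). Pacs2 fell by 0.28 (edgeR adjusted p = 0.00921), a call lost without Scramble2. Btbd6 fell by 0.53 (edgeR adjusted p = 0.0154), a call lost without JagKO4, Scramble2 or Scramble3. The unnamed gene model Gm26583, at a mean of 0.378 CPM in JAG2KO, was called higher with all libraries. Over chromosome 12 as a whole, 24% of 587 tested genes were lower and 6.64% higher. Beyond Tmem121, the immunoglobulin heavy-chain gene Ighm rose by 1.74 (edgeR adjusted p = 0.000182). It had 24.5, 17.1 and 12.6 CPM in JagKO2, JagKO3 and JagKO4 and 6.26, 5.56 and 4.28 CPM in Scramble. B cell markers summed to 0.297, 2.36 and 3.26 CPM in JAG2KO and 0.501, 0.546 and 0.786 CPM in Scramble. The part of B cells in the level of Ighm was not tested.

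**Figure D5:**
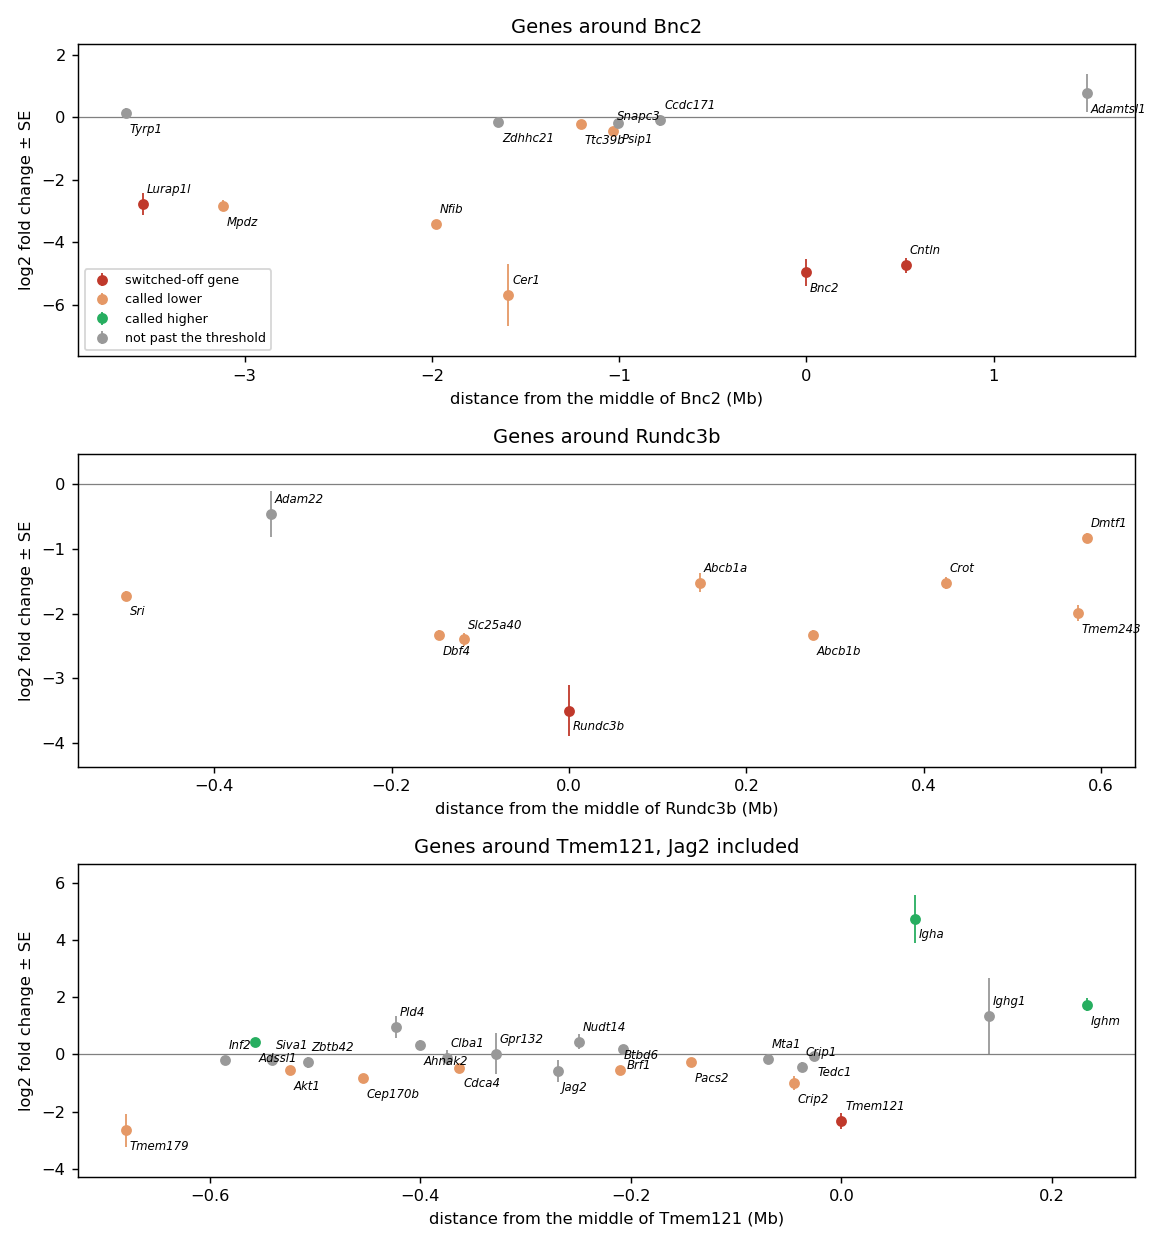
Log2 fold change ± SE (edgeR, JAG2KO over Scramble) of tested genes against distance from the middle of Bnc2, Rundc3b and Tmem121 in megabases; red, switched-off genes; orange, called lower; green, called higher; grey, not past the threshold. Around Rundc3b nearly all genes are lower, around Bnc2 lower genes alternate with genes near 0, and between Jag2 and Tmem121 values lie on both sides of 0.

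Genes of DNA methylation and Polycomb, including enzymes that undo their marks, and of the Notch pathway were read beside the set. Of 13 tested genes of DNA methylation 3 were higher (1 without JagKO2, JagKO3, JagKO4 or Scramble2), with a median log2 fold change of -0.01, and 0 were lower by edgeR (also at an unadjusted p under 0.05), DESeq2 or limma-voom. Tet2, which oxidises methylated cytosine, rose by 0.51 (edgeR adjusted p = 0.000673). Of 22 Polycomb genes 4 were lower and 5 higher, with a median of 0.06, and Cbx7, a reader of Polycomb marks, rose by 0.81 (edgeR adjusted p = 3.85e-05). This list mixes opposed roles. Ezh2, which writes a Polycomb mark, fell by 0.48, and Kdm6a, which removes it, rose by 0.44 (edgeR adjusted p = 0.00186 and 0.00163). The core Notch genes gave 4 lower (2 without JagKO4 or Scramble2) and 9 higher of 31 tested, with a median of 0.12. Over all tested genes 12.5% were lower and 11.8% higher, and the difference was not tested. Among the higher genes Maml2 rose by 0.94, Notch2 by 0.69 and Notch4 by 1.41 (edgeR adjusted p = 1.93e-05, 2.01e-05 and 0.000306). The 4 lower genes included Rbpj, which fell by 0.38, and the ligand gene Dll1, which fell by 1.01 (edgeR adjusted p = 0.00134 and 0.00181 with all libraries). Notch3, also called higher, is counted among the pericyte markers too. Several endothelial markers were called higher as well, and the part of endothelial cells and pericytes in the Notch calls was not tested.

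Of 11 synaptic adhesion genes tested 3 were lower and 3 higher, with a median of 0.09. Cadm1, an adhesion molecule of synapses and epithelia, averaged 1.03 ± 0.145 CPM in JAG2KO and 48.5 ± 3.67 CPM in Scramble (SD, n = 3 each; log2 fold change -5.56, edgeR adjusted p = 1.72e-10), and missed the rule by its JAG2KO level. Of 32 protocadherin genes 1 was lower (2 without JagKO2) and 8 higher (5 without JagKO2 or Scramble1), with a median of 0.41. Pcdhgb6 rose by 2.48 (edgeR adjusted p = 5.67e-07). Of 225 solute carrier genes 40 were lower (25 without Scramble2) and 36 higher, with a median of 0.02. Over all 150 tested relatives that share a symbol stem with a switched-off gene, 29 (19.3%) were lower and 30 (20%) higher (19 without Scramble1), with a median of 0.08.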

How the data were processed

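RNA was measured in 6 libraries of sorted tumour cells. Whole-number counts for each gene were deposited by the authors, with STAR 2.7.7a and HTSeq 0.11.2 named per the submitters' processing notes. For genome build, annotation, strand setting and the treatment of multiply mapped reads the sources used here give nothing. JAG2KO columns are numbered 2 to 4 whereas sample titles run 1 to 3, so they were used without replicate numbers and called by their column names.

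CPM used column totals. The comparison used edgeR 4.0.16 in R 4.3.3 over all genes (filterByExpr with minimum count 10 and minimum total 15, TMM, quasi-likelihood F test, Benjamini-Hochberg adjusted p under 0.05), after a check on simulated data. The SE given with an edgeR log2 fold change is its absolute value divided by the square root of the F statistic. DESeq2 1.42.0 and limma 3.58.1 (voom) were alternatives. Symbols and positions came from GENCODE M21, with 55154 IDs matched, and promoters from RefSeq (GRCm38.p6). Of the 40 promoters, 30 had their first transcribed bases in a GENCODE transcript.

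The members, lists and tests were chosen with earlier results of these data known. The classes of role, the GAAA-NN-GAAA pattern and 3 ways to take neighbours were set after the values were seen. Members were named by rule. Where a list holds a switched-off gene, the choice of genes fixed the lower call of that gene. Of other genes, Jag2, relatives by symbol stem, neighbours, cell type markers and up to 3 called genes with the smallest p per list could be named. Ezh2, Rbpj and Dll1 were named besides these, after the values were seen. The exact interval of a ratio of counts is binomial and covers counting error only.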

Additional observations from a re-analysis of the deposited data

How the results depend on the processing

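The number of genes that the rule takes depends on its thresholds: 10 named genes had CPM under 0.5 in JAG2KO and at least 4 in Scramble, and 113 had CPM under 1.5 in JAG2KO and at least 1.5 in Scramble. With the groups exchanged those thresholds took 2 and 92 genes, against 21. With 1 library left out the rule took 54 to 60 genes, and 21 to 29 with the groups exchanged. The median log2 ratio of the 50 was -3.07 with an offset of 0.05 CPM, -3.11 to -3.04 with 1 library left out, and -2.30 with an offset of 0.5 CPM, as a larger offset shrinks ratios of low values. The ratio of 10 of the 50 moved by over 1.5 times without 1 library.

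Among neighbours, 51 were called lower with 5 annotated genes on each side, 118 with 5 tested genes, 196 within 1 Mb and 28 without chromosomes 4 and 6; these sets differ in size, and their shares were 28.3%, 24.8%, 21.1% and 19.7%. With 1 library left out, 42 to 55 neighbours and 20 to 29 relatives were called lower. Genes called lower over the table numbered 1349 to 2093 and genes called higher 1356 to 1926. Other scaling factors (0.992 to 1.01), filters, DESeq2 and limma-voom kept each of these counts within 1.5 times. No paired analysis was possible because the JAG2KO columns carry numbers 2 to 4 that the sample titles do not share. Levels under 3 counts, such as Lingo3 in JAG2KO, are limited by depth.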
